A study of Homo sapiens with 9 samples.

Results

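The array of MiaPaCa2 cells exposed for 24 h to stellate cell supernatant was set against the arrays labelled 6 h and 7 h, 3 of the 9 arrays in the series, to ask what changed late in the exposure and which genes came back to their 1 h level. The 3 arrays were taken by their labelled hours. MiaPaCa2 is an established human pancreatic carcinoma line, and it was the only line used. All 8 exposed arrays came from cells given the culture supernatant of naive pancreatic stellate cells, the fibroblast-like cells of the pancreatic stroma, for 1, 2, 3, 4, 5, 6, 7 or 24 h. A ninth array is labelled as a control at 24 h. Its title also names the stellate cell treatment, while its description calls it a control, so what those cells received is not settled by the labels, and control values are given only as those of the array so labelled. Each time had 1 array, so no value had replicates, and hours of exposure cannot be told apart from time in culture. In all 3 arrays KRT18 (13.41 to 13.55 on the log2 scale), VIM (13.92 to 13.98) and KRT8 (11.02 to 11.36) were bright, and the epithelial adhesion genes EPCAM (2.54 to 2.69) and CDH1 (3.43 to 3.66) were dim.

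Cells that receive growth factors pass from G1 into S phase when E2F factors are released from the RB protein and switch on the genes that license origins, supply nucleotides and copy DNA. The same signals, through AKT, keep FOXO factors out of the nucleus, and genes linked to FOXO or to quiescence are then low. Immediate early genes such as FOS and EGR1 are switched on by ERK within minutes and are soon shut off again by feedback, in part through the phosphatases and inhibitors of the DUSP and Sprouty families.

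The genes of replication and of growth factor withdrawal moved apart between 6 to 7 h and 24 h, so promoters of both groups are shown here, from 250 bases before to 50 bases after the gene start (RefSeq, GRCh38.p14). They are the members with the largest differences that hold the motif of their group, leaving out 1 chromosome whose sequence is not shown here, so that the presence of the motif in them is a choice and not a result. Capitals mark E2F motifs in CDC6, chr17:40287629-40287928 (plus strand), ORC1, chr1:52404374-52404673 (minus strand), and UHRF1, chr19:4909251-4909550 (plus strand), and FOXO motifs in YPEL3, chr16:30096164-30096463 (minus strand), and TRIB2, chr2:12716686-12716985 (plus strand).
CDC6: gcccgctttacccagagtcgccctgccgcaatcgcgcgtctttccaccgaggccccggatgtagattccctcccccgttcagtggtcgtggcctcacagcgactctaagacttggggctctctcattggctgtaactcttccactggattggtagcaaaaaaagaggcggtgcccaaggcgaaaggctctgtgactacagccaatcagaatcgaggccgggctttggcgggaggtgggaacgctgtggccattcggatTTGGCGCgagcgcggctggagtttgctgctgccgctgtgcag
ORC1: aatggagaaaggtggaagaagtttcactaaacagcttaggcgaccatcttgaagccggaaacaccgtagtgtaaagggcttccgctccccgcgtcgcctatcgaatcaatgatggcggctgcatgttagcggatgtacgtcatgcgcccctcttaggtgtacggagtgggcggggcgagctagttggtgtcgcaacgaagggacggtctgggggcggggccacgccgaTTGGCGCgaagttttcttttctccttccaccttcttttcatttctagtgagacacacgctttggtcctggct
UHRF1: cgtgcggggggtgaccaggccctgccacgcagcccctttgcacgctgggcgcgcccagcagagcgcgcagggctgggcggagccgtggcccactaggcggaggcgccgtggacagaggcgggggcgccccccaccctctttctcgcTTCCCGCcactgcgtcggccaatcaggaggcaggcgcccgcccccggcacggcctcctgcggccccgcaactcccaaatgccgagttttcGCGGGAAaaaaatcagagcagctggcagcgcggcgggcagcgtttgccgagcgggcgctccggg
YPEL3: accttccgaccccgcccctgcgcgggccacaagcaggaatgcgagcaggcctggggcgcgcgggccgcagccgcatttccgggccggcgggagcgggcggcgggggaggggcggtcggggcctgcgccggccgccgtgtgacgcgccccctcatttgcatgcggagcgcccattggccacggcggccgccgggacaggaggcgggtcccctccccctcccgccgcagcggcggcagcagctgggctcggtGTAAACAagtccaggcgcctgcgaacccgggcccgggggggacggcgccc
TRIB2: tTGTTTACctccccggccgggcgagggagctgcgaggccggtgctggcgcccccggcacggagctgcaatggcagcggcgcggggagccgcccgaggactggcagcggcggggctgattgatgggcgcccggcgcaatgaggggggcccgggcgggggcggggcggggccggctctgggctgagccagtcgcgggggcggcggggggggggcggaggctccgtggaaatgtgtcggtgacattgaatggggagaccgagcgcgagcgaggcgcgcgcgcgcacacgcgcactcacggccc
The E2F motif was searched as TTGGCGC or TTCCCGC and the FOXO motif as GTAAACA, on both strands, and the motifs do not overlap each other. An E2F motif was present in 26 of the 38 replication genes with a promoter in the RefSeq table, or 68.4%, against 14.6% of the 10050 measured genes with a promoter there and 3 of 19 withdrawal genes. A FOXO motif was present in 4 of the 19 withdrawal genes, or 21.1%, against 2.26% of measured genes and 0 of 38 replication genes. A match is a string of letters in this window and not a site of binding. Many of the replication genes are textbook E2F targets, and the withdrawal list was drawn up as one of FOXO-type genes. A higher share of the motif in each list is therefore in large part set by the choice of its genes.

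Of 12402 genes with a mean of at least 5 on the log2 scale, 37 passed limma's test at an adjusted p of 0.05 (0.298%), 25 higher at 24 h (0.202%) and 12 lower (0.0968%). Errors are standard errors (SE) of the fit, in which the differences between neighbouring hours (1 and 2, 3 and 4, 6 and 7 h) stood for the spread between arrays, and the lone 24 h array was assumed to vary likewise. The smallest adjusted p was 0.0363. The 37 calls were near the limit of what the arrays allow: in limma's test 0 genes passed without the 1 h, 2 h, 3 h, 4 h, 6 h or 7 h array (2152 to 2963 at an unadjusted p of 0.05, 2670 in the full set), while 728 passed with robust estimation and an intensity trend, all 37 among them. A second quantile normalization gave 72 higher and 44 lower, and aligning the array medians gave 84 and 126; all 37 genes were among the calls of both. For the groups below, the test is therefore set beside a plain count, namely how many members at 24 h lay outside the range of the 6 h and 7 h arrays. Over all genes 41.2% lay above both arrays and 31.2% below both.

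The 3 arrays did not share a level: the median of the measured genes was 7.75 in the 24 h array, 7.70 in the 6 h array and 7.64 in the 7 h array, against 7.75 in the 1 h array. At least 1.5-fold above both arrays were 86 genes (0.693%) and at least 1.5-fold below both 29 (0.234%), a split that became 73 and 37 after a second quantile normalization and 58 and 55 with aligned medians. At least 2-fold above both were ALPK3, CCNG2, GDPD1, KLF9 and TNFSF10, 5 genes (0.0403%), and 2-fold below both were ID2 and MCM10, 2 genes (0.0161%). The genes above were dimmer, with a median level of 6.91, than the genes below, with 8.53. The part of array level and brightness in the differences was not tested. For ACTB, the 3' probe set exceeded the 5' one, a measure of RNA quality, by 1.90 in the 24 h array, 1.75 and 1.76 in the 6 h and 7 h arrays and 1.66 in the 1 h array. Its part was not tested either.

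Genes of DNA replication were lower at 24 h than at 6 and 7 h. All 44 measured genes of the G1/S and replication list lay below both arrays, where 31.2% of all genes did; 6 of them passed the test, all lower, and 38 did not. Their median difference was -0.47, against 0.02 over all genes, and their differences ran from -1.06 to -0.12. The count of 44 below both arrays was the same after a second quantile normalization and with aligned medians.

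MCM10, which helps to start unwinding at licensed origins, had a level of 8.25 at 24 h, 9.34 at 6 h and 9.28 at 7 h. It fell by 1.06 ± 0.08 (SE; 2.09-fold; adjusted p = 0.0363) and was lower than in any of the hourly arrays, the 1 h array being the next at 8.52. CCNE2, a cyclin that drives entry into S phase, was at 8.42 at 24 h, 9.39 at 6 h and 9.32 at 7 h. Its fall of 1.91-fold (-0.93 ± 0.11; adjusted p = 0.0449) was seen in both bright probe sets (-1.26 and -0.93). ORC1, the largest subunit of the origin recognition complex, was at 7.49 at 24 h, 8.14 at 6 h and 8.26 at 7 h (-0.71 ± 0.09; adjusted p = 0.0464). RRM2, the regulated subunit of ribonucleotide reductase, which makes deoxynucleotides, was at 11.92 at 24 h, 12.72 at 6 h and 12.62 at 7 h (-0.75 ± 0.09; adjusted p = 0.0464). EXO1, a nuclease of mismatch repair, was at 7.86, 8.56 and 8.66 at 24, 6 and 7 h (-0.75 ± 0.08; adjusted p = 0.0363). UHRF1, which carries DNA methylation through replication, was at 9.84, 10.55 and 10.51 (-0.69 ± 0.08; adjusted p = 0.0363). In each of these 6 genes the 24 h array lay lower than all 7 hourly arrays. The 6 were called for a low 24 h array, so this is in large part set by that choice.

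Among the 38 replication genes that did not pass, the licensing factor CDC6 was at 7.90 at 24 h, 8.73 at 6 h and 8.69 at 7 h (adjusted p = 0.0539). DTL, which marks CDT1 for degradation, was at 9.71, 10.46 and 10.31 (adjusted p = 0.0547). The helicase subunit MCM5 was at 9.07, 9.69 and 9.72 (adjusted p = 0.0566), and E2F1, the factor itself, at 7.32, 7.91 and 7.77 (adjusted p = 0.0651). In all 4 the 24 h value lay below both others, which held for all 44 genes of the list and 31.2% of all genes. The 4 were picked with their values in view. At the low end, the thymidylate synthase gene TYMS differed by -0.12 and the ribonucleotide reductase subunit RRM1 by -0.19.

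The replication genes at 24 h were also low against other times. In 36 of 44 the 24 h array was the lowest of the 8 exposed arrays, which held for 14.4% of all genes. The median of the list, as a difference from the mean of 6 and 7 h, was -0.35 at 1 h, -0.22 at 2 h, -0.09 at 5 h and -0.47 at 24 h, and -0.07 in the control. The list therefore stood lowest at the 24 h and 1 h arrays. Genes of G2/M and mitosis had smaller values: of 32 measured, 18 lay below both arrays and 7 above, 0 passed, and the median was -0.08 at 24 h and -0.09 at 1 h. KIF23, a kinesin of cytokinesis (-0.41; adjusted p = 0.0759), and CCNA2, the cyclin of S phase and G2 (-0.35; adjusted p = 0.084), had the largest differences. Fewer cells in S phase and less RNA of these genes per cell cannot be told apart in bulk RNA.

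**Figure D1:**
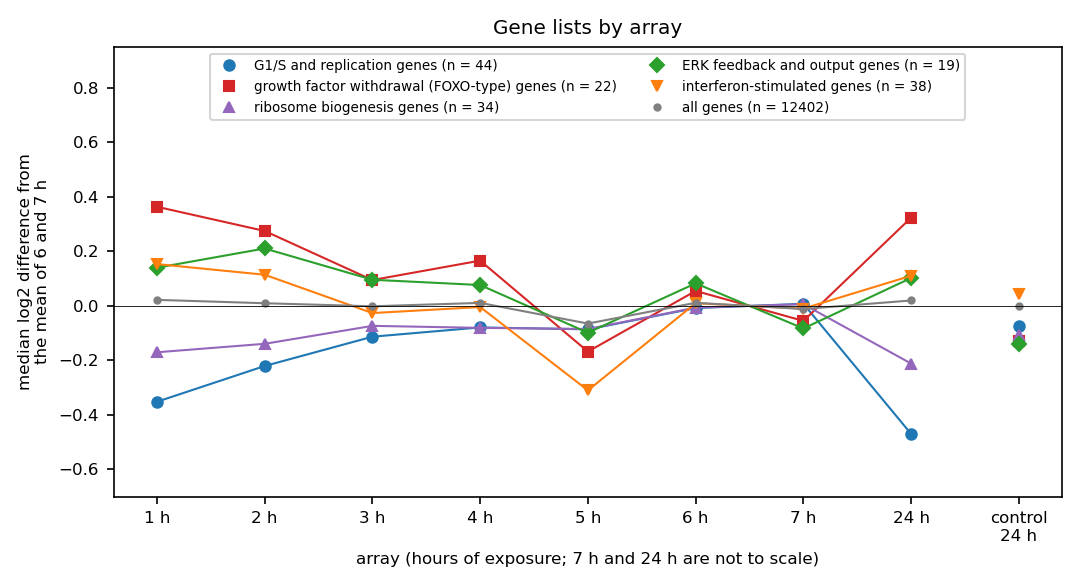
Median log2 difference from the mean of the 6 h and 7 h arrays for 5 gene lists and all genes (y axis) in each array (x axis, hours of exposure in order and not to scale, with the control at 24 h apart); each point is 1 array. The replication genes lie at -0.35 at 1 h and -0.47 at 24 h, and the withdrawal genes at 0.36 and 0.32.

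The other 6 genes that passed as lower were TCF19, HES1, RBM25, ATAD2, UBAP2L and FIGNL1. TCF19, a zinc finger gene of late G1, was at 6.80 at 24 h, 7.58 at 6 h and 7.48 at 7 h (-0.73 ± 0.08; adjusted p = 0.0363). FIGNL1, which acts in recombination repair, was at 8.83, 9.43 and 9.41 (-0.59 ± 0.08; adjusted p = 0.0484). ATAD2, a chromatin ATPase, was 1.54-fold lower, and so was UBAP2L, though over the 4 bright probe sets of UBAP2L the difference ran from -0.62 to 0.20. RBM25, a splicing regulator, was at 8.83 at 24 h and 9.49 and 9.50 at 6 and 7 h, and its 6 bright probe sets ranged from -0.66 to -0.28.

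HES1, a repressor downstream of Notch, took another course. Its level was 8.58 in the 1 h array, 8.59 at 2 h, 7.95 at 6 h, 8.06 at 7 h and 7.35 at 24 h, near the control at 7.24. The 2 bright probe sets of HES1 differed at 24 h from 6 to 7 h by -0.66 and -0.26, and the mean over its probe sets by -0.35. Its difference from 6 to 7 h was -0.66 ± 0.09 (adjusted p = 0.0489). In the contrast of 24 h with the mean of 1 and 2 h it was the only gene of 12402 that passed (-1.23 ± 0.09; adjusted p = 0.0287; 0 genes were higher and passed, and 0.00806% were lower and passed). In limma's test 1165 genes had an unadjusted p under 0.05 in that contrast. ID2, whose protein binds and blocks basic helix-loop-helix factors, had the most negative difference of the 12402 genes, with a level of 7.22 at 24 h, 8.39 at 6 h and 8.66 at 7 h. With an SE of 0.27 it did not pass (-1.30; adjusted p = 0.0715). Its related gene ID3 was at 10.75, 11.16 and 11.33 (adjusted p = 0.128).

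**Figure D2:**
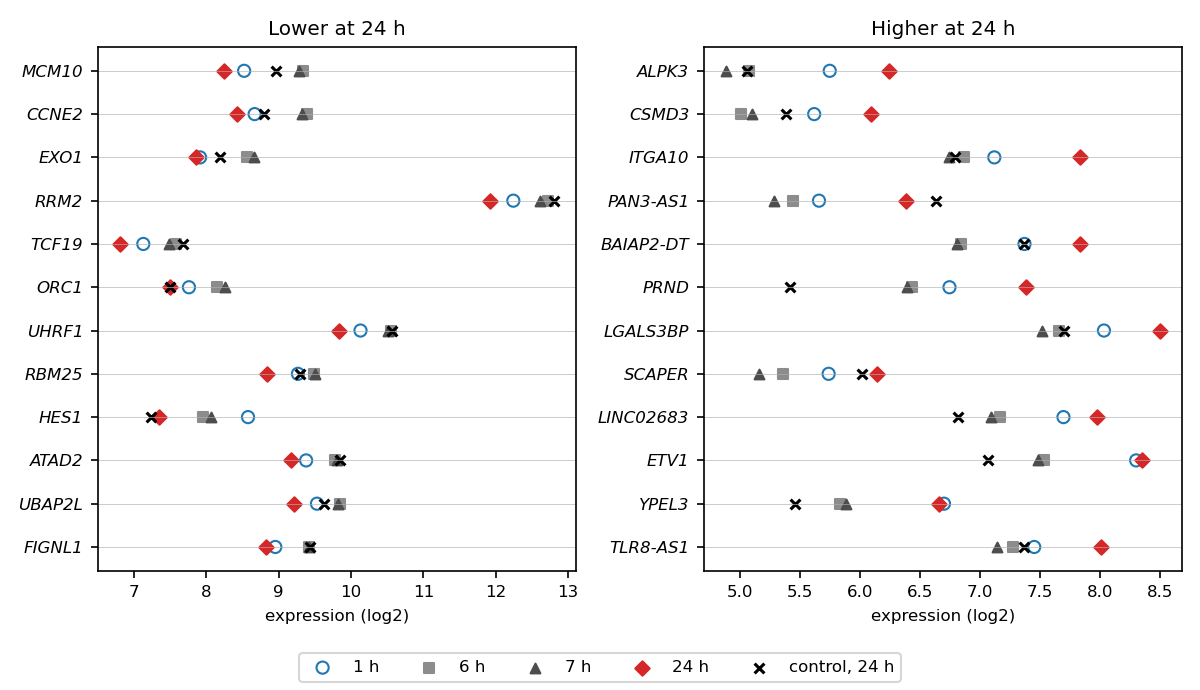
Log2 expression (x axis) of the 12 genes with the largest negative and the 12 with the largest positive difference among those that passed, in the 1 h, 6 h, 7 h, 24 h and control arrays; each symbol is 1 array. MCM10 is at 8.25 at 24 h and at 9.28 or more at 6 and 7 h, and ALPK3 at 6.25 against 5.08 or less.

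The 25 genes that passed as higher included a kinase, an integrin subunit, secreted proteins and noncoding genes. ALPK3, an alpha kinase best known from muscle, was at 6.25 at 24 h, 5.08 at 6 h and 4.88 at 7 h. It rose by 1.27 ± 0.17 (2.41-fold; adjusted p = 0.0489), and its other bright probe set differed by 0.68. ITGA10, a collagen-binding integrin subunit, was at 7.84, 6.86 and 6.75 (1.03 ± 0.10; adjusted p = 0.0363) and had been at 7.12 at 1 h. LGALS3BP, a secreted glycoprotein that binds galectins, was at 8.50, 7.66 and 7.51 (0.92 ± 0.10; adjusted p = 0.0363). PRND, the prion-like gene, was at 7.39, 6.43 and 6.40 (0.97 ± 0.09; adjusted p = 0.0363), with 5.42 in the control. Of the 25 genes that passed as higher, 23 were at 24 h higher than in any hourly array, where 21.9% of all genes were. The exceptions were YPEL3 and DLX4. The 25 genes were called for a high 24 h array, so the share that topped every hourly array is in large part set by that choice.

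CSMD3 (6.10 at 24 h, 5.01 and 5.10 at 6 and 7 h) and SCAPER (6.15, 5.36 and 5.16) were dim and passed as higher. Noncoding genes made up 4 of the 25: PAN3-AS1 (1.02 ± 0.10), BAIAP2-DT (1.01 ± 0.08), LINC02683 (0.84 ± 0.09) and TLR8-AS1 (0.80 ± 0.10). Long noncoding genes were 693 of the 12402 measured. Over these 693 the median difference was 0.00, against 0.02 over all genes, and 253 lay above both arrays, a smaller share than the 41.2% of all genes. Of the 3 bright probe sets of BAIAP2-DT one differed by -0.08.

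Genes that respond to the loss of growth factors, many of them FOXO targets, were higher at 24 h than at 6 and 7 h. Of 22 measured members 19 lay above both arrays and 0 below both, where 41.2% and 31.2% of all genes did. The test called 1 of them, which was higher, and left 21 uncalled. The median difference was 0.32, and 0.24 with aligned medians, when 17 lay above both and 4 below. Over all genes the median was 0.02, and -0.07 with aligned medians. YPEL3, a growth-suppressing gene, passed: it was at 6.66 at 24 h, 5.84 at 6 h and 5.89 at 7 h (0.80 ± 0.10; adjusted p = 0.0464), though its other bright probe set differed by -0.17.

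KLF9 and CCNG2, with the largest differences of the list, did not pass. KLF9, a zinc finger factor of quiescent cells, was at 7.81 at 24 h, 6.67 at 6 h and 6.35 at 7 h (1.29 ± 0.21; adjusted p = 0.0566). Its other bright probe set differed by 0.60. CCNG2, an atypical cyclin linked to growth arrest, was at 7.81, 6.49 and 6.56 (1.29 ± 0.19; adjusted p = 0.0539), but its bright probe sets ran from -0.27 to 1.30. The receptor gene ERBB3, which FOXO factors raise when AKT is off, was at 6.01, 5.51 and 5.07 (adjusted p = 0.0819; probe sets from -0.19 to 0.72), and HBP1, a repressor of cell cycle genes, at 8.93, 8.24 and 8.22 (adjusted p = 0.0534). TRIB2, a pseudokinase, was at 8.85, 8.34 and 7.94 (adjusted p = 0.0883). YPEL2, a relative of YPEL3, was at 6.31, 5.70 and 5.47 (adjusted p = 0.119). In all 6 the 24 h array lay above both others, which held for 19 of the 22 members and 41.2% of all genes. The 6 were named for large differences or with their values in view, so this is in large part set by that choice. ARRDC3 and PIK3IP1 differed by -0.03 each and did not leave the range of the earlier arrays.

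Feedback genes of ERK and interferon-stimulated genes shared this direction only in part. Of 19 ERK feedback and output genes 11 lay above both arrays and 2 below, 1 passed, and the median was 0.10. The member that passed was ETV1, a factor of the PEA3 group, at 8.35 at 24 h, 7.54 at 6 h and 7.49 at 7 h (0.84 ± 0.09; adjusted p = 0.0363), whose 4 bright probe sets ranged from 0.10 to 0.84. DUSP6, the phosphatase of ERK, was at 6.34, 5.95 and 6.05 (adjusted p = 0.288), and the inhibitor SPRY4 at 10.06, 9.85 and 9.51 (adjusted p = 0.178). Of 38 interferon-stimulated genes 24 lay above both arrays and 10 below, 0 passed, and the median was 0.11. Among them BST2, which tethers virions, was at 6.66, 6.00 and 5.98 (adjusted p = 0.102) and IRF9, a subunit of the interferon-activated factor, at 7.19, 6.51 and 6.59 (adjusted p = 0.114). With aligned medians the 2 list medians were 0.02 and 0.03, against -0.07 over all genes.

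Most genes of ribosome biogenesis were lower in the 24 h array by a small amount. Of 34 measured, 29 lay below both arrays and 2 above, and 33 and 0 with aligned medians. Aligning the medians lowers the 24 h array against the other 2 for every gene, and the higher count follows from this. The median over all genes was then -0.07 in place of 0.02, and the shares of 41.2% and 31.2% hold only for the unshifted values. In limma's test 0 of them passed, with a median of -0.21 and a range from -0.50 to 0.09. POLR3G, a subunit of RNA polymerase III, was at 7.72 at 24 h, 8.26 at 6 h and 8.17 at 7 h (adjusted p = 0.0604), and NIP7, a factor of large subunit assembly, at 10.20, 10.70 and 10.55 (adjusted p = 0.0744).

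MMP1 and LYZ, named for their distance from the control, did not pass between these hours. MMP1, a collagenase, was at 7.97 at 24 h, 7.78 at 6 h and 7.82 at 7 h, with 4.81 in the control (0.17; adjusted p = 0.499). LYZ, lysozyme, was at 8.14, 8.07 and 8.14, with 5.70 in the control (0.03; adjusted p = 0.900).

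To follow the return to the 1 h level, genes were taken that lay at least 1.5-fold from the 1 h array in the same direction at both 6 h and 7 h. They were 74 genes: 58 lower at 6 to 7 h than at 1 h (0.468% of 12402) and 16 higher (0.129%). In limma's test 0 genes passed for the mean of 6 and 7 h against the mean of 1 and 2 h (1993 at an unadjusted p of 0.05). Just inside the threshold lay VWA5A (smaller departure 0.585) and GKAP1 (0.592), and just outside it IRAK1BP1 (0.583) and FBXO3 (0.581). The position of the 24 h array was written as a fraction of the way from the 6 to 7 h level (0) to the 1 h level (1), and a position of at least 0.75, up to an equal distance past 1, counted as back. By this description 31 of the 74 genes were back, 30 were part of the way back, 5 were past the 1 h level, 7 stayed and 1 was further away. The counts depended on single arrays: 150 of 286 genes were back without the 6 h array, 62 of 129 without the 7 h array, and 6 of 27 with the 2 h array in place of the 1 h array. The position rests on the single 1 h and 24 h arrays, and both the departure and the position use the 6 h and 7 h arrays. With genes chosen on the 2 h and 6 h arrays and the position measured from the 1 h and 7 h arrays, 17 of 62 were back, 14 part of the way, 10 past, 9 stayed and 12 were further away.

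Of the 58 genes low at 6 to 7 h, 29 were back at 24 h. TNFSF10, the death ligand TRAIL, was at 7.04 at 1 h, 5.40 at 6 h, 5.07 at 7 h and 6.70 at 24 h. GDPD1, a glycerophosphodiester phosphodiesterase, was at 6.40, 4.68, 4.76 and 6.23. KLF9 was at 8.08, 6.67, 6.35 and 7.81, and CREBRF, a regulator of CREB3 factors, at 7.27, 6.15, 5.74 and 7.11. The lowest of the hourly values in TNFSF10 was at 5 h (4.73), the array least correlated with the 24 h array. CCNG2 was at 7.77, 6.49, 6.56 and 7.81 and KLHL24, an adaptor of ubiquitin ligases, at 8.16, 7.31, 6.77 and 8.04. Over the 4 bright probe sets of KLHL24 the difference of 24 h from 6 to 7 h ran from 0.21 to 1.00. Over the 4 of CREBRF it ran from 0.51 to 1.17. In all 6 genes the 24 h value lay closer to the 1 h value than to either later array, which the definition of back largely sets. TNFSF10, KLF9, CREBRF, CCNG2 and KLHL24 are known from other cells as FOXO-linked or stress-linked genes. TP53INP1, a p53-induced gene, came part of the way, at 7.01, 6.22, 5.78 and 6.61, as did the glucose-sensing gene TXNIP, at 9.89, 9.09, 8.86 and 9.59.

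FOS, EGR1, EGR3, DUSP1, JUNB and ZFP36 were the immediate early genes among the 74, and by the description above none of them was back at 24 h. FOS was at 6.77 at 1 h, 4.92 at 6 h, 5.14 at 7 h and 4.18 at 24 h, with 4.33 in the control, and was the 1 gene further from its 1 h level. The growth response gene EGR1 was at 11.71, 9.71, 10.21 and 9.67 and stayed, as did its relative EGR3 at 6.95, 6.24, 6.17 and 6.27. The phosphatase gene DUSP1 (9.42, 8.80, 8.64 and 8.60), the monocyte receptor gene CD14 (6.87, 6.08, 6.21 and 6.25) and the noncoding WASIR2 (6.68, 5.93, 5.62 and 5.93) made up the rest of the genes that had been lower and stayed. JUNB (7.68, 6.48, 6.45 and 6.93), the mRNA-decay factor ZFP36 (7.90, 6.83, 7.01 and 7.31) and DUSP6 (7.01, 5.95, 6.05 and 6.34) were part of the way back. Over the 27 measured immediate early genes, 12 lay at 24 h above both the 6 h and 7 h arrays and 10 below, 0 passed, and the median was 0.00.

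**Figure D3:**
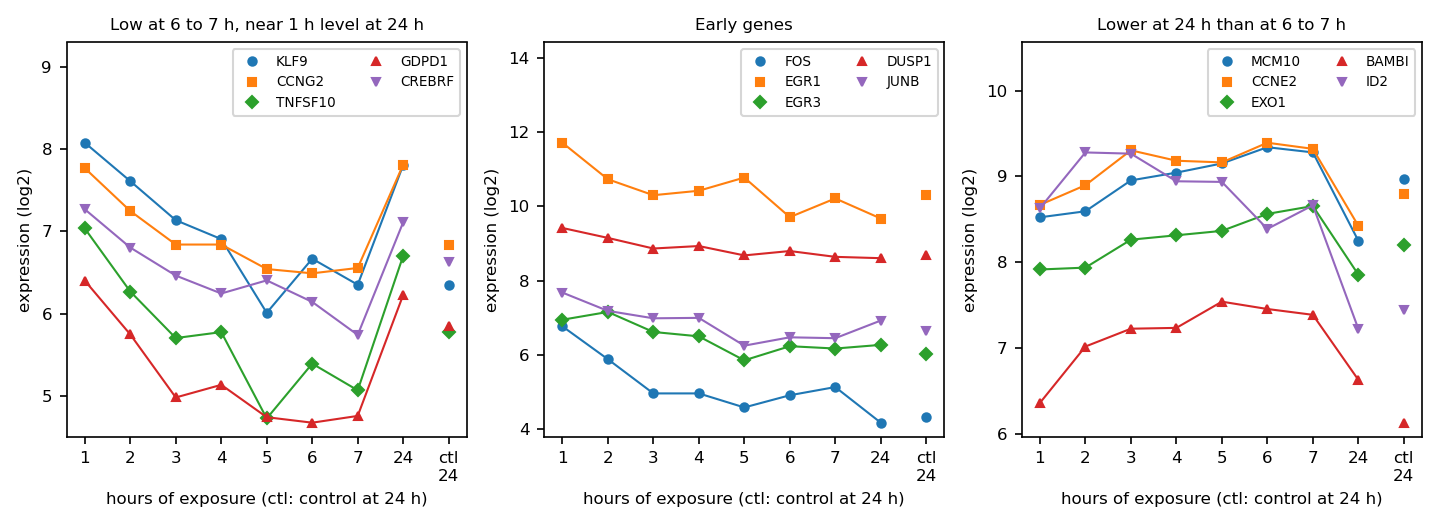
Log2 expression (y axis) of 15 genes by array (x axis, hours of exposure in order and not to scale, with the control at 24 h apart, written ctl); each point is 1 array. KLF9 and CCNG2 are both at 7.81 at 24 h after 6.35 to 6.67 at 6 and 7 h, whereas FOS goes from 6.77 at 1 h to 4.18 at 24 h.

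Of the 16 genes high at 6 to 7 h, EXO1 and E2F7 were back at 24 h. E2F7, a repressor of the E2F family, was at 6.60 at 1 h, 7.35 at 6 h, 7.24 at 7 h and 6.54 at 24 h. However, the 2 bright probe sets of E2F7 differed at 24 h from 6 to 7 h by -0.75 and -0.13. MCM10, CCNE2, CDC6 and ADM had gone below the 1 h level. ADM, the secreted peptide adrenomedullin, was at 7.97, 8.64, 8.70 and 7.73 at 1, 6, 7 and 24 h (adjusted p = 0.074 for 24 h against 6 to 7 h). The TGF-beta and BMP response genes BAMBI (6.36, 7.45, 7.39 and 6.63), PMEPA1 (8.09, 8.95, 8.81 and 8.63) and SNAI2 (4.64, 5.30, 5.33 and 4.94) were part of the way back. So was the metallothionein gene MT1M (4.88, 6.36, 6.33 and 5.55), which was at 8.88 in the control. Over the 3 bright probe sets of PMEPA1 the difference of 24 h from 6 to 7 h ran from -0.25 to 0.04. The GTPase gene RASEF (8.56, 9.23, 9.24 and 9.13) and the noncoding RUSC1-AS1 (6.03, 6.70, 6.68 and 6.72) stayed high. Over the whole list of 17 TGF-beta and BMP response genes 5 lay at 24 h above both arrays and 8 below, 0 passed, and the median was -0.13.

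The same pattern was described over all genes with differences that share no array. Over 12402 genes the difference of 6 h from 1 h and that of 24 h from 7 h had a correlation of -0.53, and the difference of 7 h from 1 h and that of 24 h from 6 h one of -0.45. With the 2 h array in place of the 1 h array the first was -0.24. These are descriptions across genes, which are not independent, and the 1 h and 24 h arrays also shared the higher median level given above; after a second quantile normalization the first correlation was -0.52. Among the replication genes the median of 24 h minus 1 h was -0.10, and 36 of 44 were lower at 24 h than at 1 h, where 49.7% of all genes were. Among the withdrawal genes it was -0.03, with 13 lower and 9 higher, and among the ribosome biogenesis genes -0.00, with 19 lower and 15 higher.

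**Figure D4:**
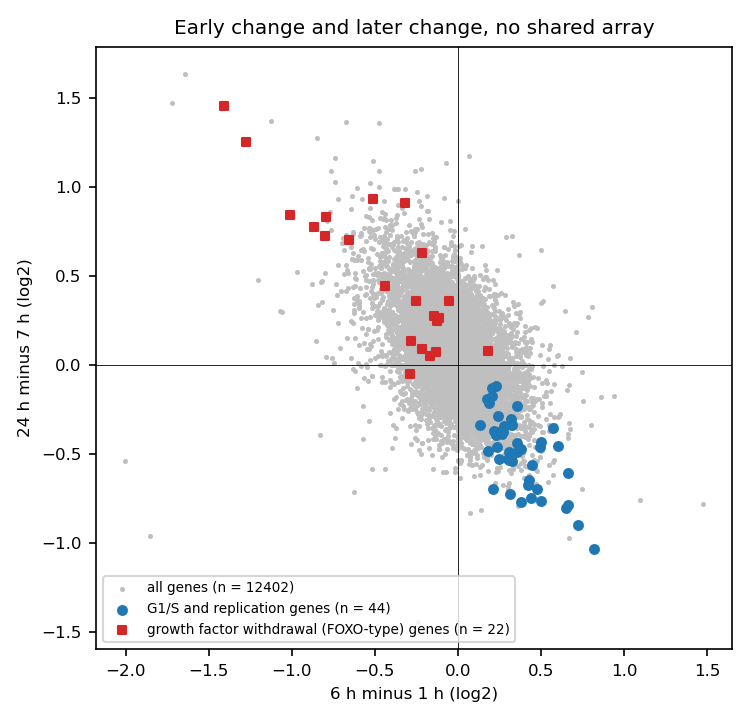
Log2 difference of the 24 h from the 7 h array (y axis) against that of the 6 h from the 1 h array (x axis) for 12402 genes, with no array on both axes; each point is 1 gene. The correlation across genes is -0.53, with the replication genes at the lower right and most withdrawal genes at the upper left.

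Markers of other cell types were summed in the 3 arrays. Of 15 stellate cell and fibroblast markers with a probe set 9 reached the level of 5, and the log2 of their summed level was 13.11 in the 24 h array, 12.98 in the 6 h array and 12.94 in the 7 h array, with 12.52 in the control. The fibroblast genes LUM (2.35 to 2.37), POSTN (2.69 to 2.90) and FAP (3.48 to 3.78) were dim in all 3, while RGS5 was at 12.17 to 12.26 and COL1A2 at 10.95 to 11.34. For the 9 leukocyte markers, 5 of which reached 5, the summed level was 9.16, 9.09 and 9.18. LYZ gave the most, at 8.14, 8.07 and 8.14, and CD14 was at 6.25, 6.08 and 6.21. The leukocyte gene PTPRC was dim, at 3.45 to 3.70. For the 8 endothelial markers, 4 of which reached 5, it was 9.07, 8.86 and 8.82, and ROBO4 gave the most, at 8.10, 7.82 and 7.78. The 5 acinar and islet markers, of which 1 reached 5, gave 6.38, 6.37 and 6.44. The part of other cells in the differences was not tested.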

How the data were processed

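RNA of MiaPaCa2 cells was measured on 9 Affymetrix arrays, 1 per sample, grouped by the hours in the labels. The deposited log2 values were made by the authors with RMA, per the submitters' processing notes, with no version stated there. A filtered table of the authors with 6370 of the 54675 probe sets held the same log2 values to within 5.00e-09. Of the probe sets 41097 had 1 gene symbol in the platform annotation, 1801 several and 11777 none; 41043 were matched to GRCh38.p14 gene names by Entrez ID. Each of 19775 genes was represented by the single-symbol probe set that was brightest on average over all 9 arrays, and 12402 genes averaging 5 or more were kept. RMA's median polish can give 2 arrays the same value: 298 kept genes were equal at 6 and 7 h, and 1 of them passed. Array values carry no read depth, so the number of arrays limits the precision.

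Means for the pairs 1 and 2, 3 and 4, and 6 and 7 h and for the single 5 h, 24 h and control arrays were fitted by lmFit and eBayes of limma 3.58.1 (R 4.3.3), with 3 residual and 3.88 prior degrees of freedom. Tests were two-sided, and p-values were adjusted by Benjamini-Hochberg over the 12402 genes. They reflect only how much arrays of neighbouring hours differ, which holds change within that hour as well as scatter, and part of the scatter may be technical. A change between neighbouring hours widens the SE and can keep a gene from passing. KLF9, at 8.08 at 1 h and 7.61 at 2 h, had an SE of 0.21, where the median over all genes was 0.10. The 12 largest differences of each direction among genes that passed were named, the 6 largest departures per direction in the classes back, stayed and further away, up to 4 members of a list, and DUSP6, FOS, KLF9, TP53INP1, MMP1 and LYZ; any other gene was picked with its values in view. The comparison, the 27 lists of function, the 5 marker lists and the rules were chosen with earlier results of these data known. In simulated data with 12402 genes, 27% of 100 genes changed by 0.5 and 94% of 100 changed by 1 were recovered at 24 h, with 6 false calls. The simulated arrays varied independently and alike, with no change between hours apart from the changed genes at 24 h. These shares hold only under that setting, which the real arrays need not meet. Python 3.11.15 with pandas 2.3.3, numpy 2.4.6 and matplotlib 3.10.9 prepared the tables and figures.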

Additional observations from a re-analysis of the deposited data

How the results depend on the processing

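No paired analysis was possible because each group held 1 array. The number of genes that passed (24 h minus the mean of 6 and 7 h, 25 higher and 12 lower) was 100 and 62 with a line over 1 to 7 h evaluated at 6.5 h, 454 and 274 with robust estimation and a trend, 261 and 138 with a mean of at least 6, 161 and 114 in the mean over probe sets, 72 and 44 after another quantile normalization, 84 and 126 with the arrays shifted to 1 median, and 119 and 46 of 2169 genes in the authors' filtered table. In limma's test it was 0 and 0 with a mean of at least 4 (2756 at an unadjusted p of 0.05), with no filter (2933) and with the spread taken from 6 against 7 h alone (1600). Leaving out 1 hourly array gave 0 to 25 higher and 0 to 12 lower. Without a test, 5 and 2 genes were 2-fold and 86 and 29 genes 1.5-fold from both arrays. The 24 named genes kept their direction in all 399 pairs of gene and setting, and 165 of these kept the call. Direction could not change where a setting altered only the spread or the filter, or dropped 1 array from 1 to 5 h. The difference itself is then the same. Leaving out the 5 h array, which adds nothing to the spread, could not change a call either. The number of genes back at their 1 h level, 31, was 6 of 27 with 2 h in place of 1 h, 15 of 31 with the mean of 1 and 2 h, 5 of 11 for a 2-fold departure, 17 of 62 when chosen on 2 h and 6 h, 13 of 36 in the mean over probe sets, 50 of 74 when 0.5 of the way counted as back, and 62 of 129 to 150 of 286 when the 7 h or the 6 h array was left out. Under the other settings it was 24 to 38. The cause of these changes was not tested. The medians of the replication, withdrawal, ribosome biogenesis, ERK feedback and interferon lists kept their sign under the other normalizations and the mean over probe sets.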

Other observations

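Other genes also lay beyond both the 6 h and 7 h arrays at 24 h, with no call in limma's test. The aldo-keto reductase genes AKR1C1 (-0.61 ± 0.10; adjusted p = 0.0566) and AKR1C2 (10.26 at 24 h, 10.79 at 6 h and 10.95 at 7 h; adjusted p = 0.076) had the most negative differences of the NRF2 list, of which 10 of 19 lay below both arrays and 2 above. The matricellular gene CCN1, counted above among the immediate early genes and also on the YAP and TEAD list, was at 9.69, 10.37 and 10.35 (adjusted p = 0.0834). Of the plasminogen activator system, the urokinase gene PLAU was at 10.84, 10.44 and 10.39 (adjusted p = 0.0715) and its receptor PLAUR at 9.07, 8.63 and 8.41 (adjusted p = 0.0651). VEGFA, the vascular growth factor, was at 9.59, 9.09 and 9.12 (adjusted p = 0.0566), though its bright probe sets ran from -0.12 to 0.49, and ADM, on the same hypoxia list, differed in the other direction.

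The 16 measured genes of cholesterol synthesis had a median of 0.04, the 30 amino acid and stress response genes 0.04, the 22 p53 targets 0.02, the 19 of NF-kB and cytokines -0.00, the 28 of hypoxia and glycolysis -0.02, the 33 nuclear genes of oxidative phosphorylation -0.01 and the 17 heat shock genes -0.13; in limma's test 0 of these genes passed. Over all genes the median was 0.02. Of the clustered histone genes 7 were measured, and H2AC6 passed as higher (7.25 at 24 h and 6.49 in the mean of 6 and 7 h; 0.76 ± 0.10; adjusted p = 0.0489), with 7.88 in the control.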
